A study of Mus musculus with 12 samples.

Results

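The genes examined here build and remodel the extracellular matrix of the vessel wall: the collagen chains, the Adamts and Adamts-like genes, the matrix metalloproteinases (Mmp) and their tissue inhibitors (Timp). Members were all genes of the deposited table whose symbol begins with Col followed by a chain number, with Adamts, or with Mmp or Timp followed by a digit. The basement membrane chains Col4a1 and Col4a2 were left out by that rule. It found 93 of the 21638 genes in the table: 42 collagen chains, 19 Adamts, 5 Adamts-like, 22 Mmp and 4 Timp genes, and 1 gene, Col4a3bp, that carries a collagen symbol but encodes a ceramide transfer protein. Col4a3bp was kept as a member and is described apart from the collagens.

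Endothelial cells and the mural cells around them sit on a shared basement membrane, a sheet of network-forming type IV collagen, laminin and proteoglycans that carries the blood-brain barrier. Metalloproteinases of the Mmp and Adamts families cut collagens, proteoglycans and procollagen ends, and Timp proteins bind and block members of these families. In brain, breakdown of this sheet is best known from stroke and inflammation, where leakage of the barrier accompanies protease activity.

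RNA was sequenced from cortical endothelial cells of adult mice, sorted as CD31+ CD41- CD45- cells, a gate that keeps endothelium and leaves out platelets and leukocytes. The 12 libraries came 3 each from wild type (WT), Hdac2 ECKO, Ezh2 ECKO and beta-catenin GOF mice. The Hdac2 ECKO mice were Hdac2lox/lox:Cdh5CreERT2, the Ezh2 ECKO mice Ezh2lox/lox:Cdh5CreERT2 and the beta-catenin GOF mice Ctnnb1lox/lox:Cdh5CreERT2. In each, a tamoxifen-inducible Cre under the endothelial Cdh5 promoter acts on the lox alleles. The mutants were given 5 doses of tamoxifen at 75 mg/kg, and the brains were taken 2 months later. Hdac2 encodes a histone deacetylase, Ezh2 the methyltransferase of Polycomb complexes, and Ctnnb1 encodes beta-catenin, which is kept active in that mutant. Whether WT mice carried Cre or received tamoxifen was not stated. The labels do not say that the replicates of a group were separate animals, so the p-values below measure the spread between these libraries, which may be technical.

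Libraries held 24781070 to 36109975 counts, with 13922 to 17091 genes above 0, and members took 0.0659% to 0.162% of the counts. The 13 endothelial markers were all measured. Their summed level, in CPM, the count scaled to the effective library total, was 17790 to 23270 in WT, 19810 to 22470 in beta-catenin GOF and 16540 to 22660 in libraries labelled Ezh2 ECKO. All 3 Hdac2 ECKO libraries were below every other library in this sum, at 13090 to 15680 CPM. The single markers did not fall as a set there. Of the 13, 7 had a log2 fold change above 0 against WT and 6 below, with a median of 0.20 and a range of −1.38 to 1.06. There 1 was called higher (3.82% of all genes) and 1 lower (5.38%). Without overlap, 4 were higher (19.5% of all genes) and 5 lower (18.2%). An unadjusted p under 0.05 in edgeR was held by 9 (33.1% of all genes). Hdac2 was at 82.1 to 112 CPM in Hdac2 ECKO and 103.7 to 162.5 CPM in WT, a log2 fold change (log2FC) of −0.42 that did not pass (edgeR, adjusted p 0.225). It was as low in beta-catenin GOF, at 88.6 to 107.6 CPM (log2FC −0.43, edgeR, adjusted p 0.884). Ezh2 was not lower in its own mutant (log2FC 0.40, edgeR, adjusted p 0.615), and these libraries are called the libraries labelled Ezh2 ECKO throughout. Ctnnb1 had a log2FC of −0.17 in beta-catenin GOF (edgeR, adjusted p 0.962). Gene-level counts cannot show whether a lox exon was removed. Summed erythrocyte markers were at 36120 to 61360 CPM in WT and at 400.4 to 21650 CPM in Hdac2 ECKO. They were at 509.6 to 35360 CPM in beta-catenin GOF and 2518 to 6662 CPM in libraries labelled Ezh2 ECKO, so every mutant library was below WT. Of 10 genes of the response to cell isolation, 4 fell in Hdac2 ECKO, where 5.38% of all genes were called lower. In libraries labelled Ezh2 ECKO 1 fell, where 86 of all 12577 genes tested were called lower and 1.03% in either direction. None passed in beta-catenin GOF, where all 10 had a log2FC below 0 and 7 an unadjusted p under 0.05 in edgeR (6.07% of all genes). Their sums were 3461 to 10770 CPM in WT, 1583 to 4630 CPM in Hdac2 ECKO, 2586 to 3756 CPM in beta-catenin GOF and 3806 to 4475 CPM in libraries labelled Ezh2 ECKO. The part of these differences in the results below was not tested.

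In WT, 2 members stood far above the rest. Timp3, which encodes an inhibitor that binds to the matrix itself, was at 46.4 ± 10.3 CPM per kilobase of gene length (SD, n = 3), the highest of all members. Adamts1, a protease of proteoglycans such as versican, came next at 33.6 ± 0.882 CPM per kilobase. Timp3 held 91.6% of the Timp level per kilobase (88.9% to 95.2% by library), and Adamts1 held 92.6% of the Adamts level (90.9% to 94.5%). Apart from Col4a3bp, the third, no other member exceeded 3 CPM per kilobase in the mean of WT. Timp2 stood at 2.90 ± 0.677, Mmp19 at 1.80 ± 0.348 and Adamts10 at 1.73 ± 0.428 CPM per kilobase (SD, n = 3). Of these neighbours in the order, Mmp19 and Adamts10 differed by less than their SD.

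The collagens had no such leader. Col14a1, a fibril-associated collagen, held 30.8% of the collagen level per kilobase (29.3% to 33.5%). Col18a1, the source of the basement membrane fragment endostatin, held 16.7% (10.3% to 27.8%), and Col5a2, a chain of the fibril-forming type V collagen, 11.0% (9.11% to 13.5%). Among the Mmp genes, Mmp19 held 32.0%, Mmp24 20.9% and Mmp11 15.2%. Adamtsl4, a secreted protein without protease activity that binds fibrillin microfibrils, held 60.0% of the Adamts-like level. Of the 58 members below the count minimum used for testing, 18 had no count in any WT library, against 4 in Hdac2 ECKO, 14 in beta-catenin GOF and 8 in libraries labelled Ezh2 ECKO. Over the whole table, 14202 to 14490 genes were above 0 in WT libraries and 15370 to 17091 in Hdac2 ECKO. The range was 14194 to 14681 in beta-catenin GOF and 13922 to 16026 in libraries labelled Ezh2 ECKO. Fewer members at 0 in Hdac2 ECKO therefore cannot be read as a trait of these genes.

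**Figure D1:**
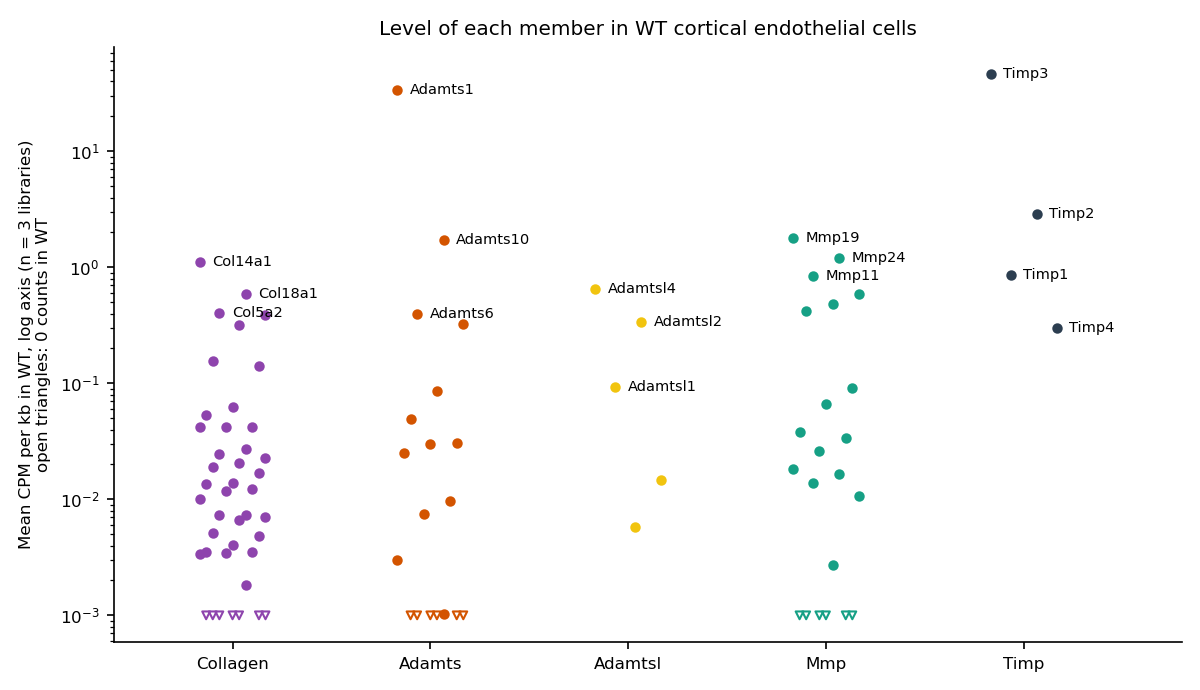
Mean level in the 3 WT libraries of each member other than Col4a3bp, by family, in CPM per kilobase on a log axis; open triangles mark members with no count in WT. Timp3 at 46.4 and Adamts1 at 33.6 CPM per kilobase stand above all others, and most collagens lie below 0.1.

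The sequence just upstream of these leading genes is shown because they carry nearly all of the Adamts and Timp level. Both come from the RefSeq promoter table (GRCm38.p6), which matched 68 of the 93 members. Letters are written 5′ to 3′ on the strand of the gene, and capitals mark matches to the motifs searched on both strands: a TATA box (TATAAA), an AP-1 site (TGANTCA), a TCF/LEF site (CTTTGAT) and an ETS site (CCGGAAGT). Timp3 is given at chr10:86300162-86300371 on the plus strand and Adamts1 at chr16:85803114-85803363 on the minus strand.
Adamts1: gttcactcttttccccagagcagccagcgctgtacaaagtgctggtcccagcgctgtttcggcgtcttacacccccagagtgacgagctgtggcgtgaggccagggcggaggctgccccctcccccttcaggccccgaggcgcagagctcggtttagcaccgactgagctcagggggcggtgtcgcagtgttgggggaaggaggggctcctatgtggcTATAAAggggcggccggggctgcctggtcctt
Timp3: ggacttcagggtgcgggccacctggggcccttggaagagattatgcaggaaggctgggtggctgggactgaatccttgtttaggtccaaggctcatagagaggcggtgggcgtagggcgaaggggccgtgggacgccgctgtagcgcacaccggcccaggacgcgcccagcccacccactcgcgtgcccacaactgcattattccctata
Adamts1 has a TATA box whose first base lies at −32 from the start, a motif that 12.4% of the 32851 promoters in the table hold. The stretch upstream of Timp3 holds none of the 4 motifs. The windows hold 15 and 13 CpG dinucleotides, over 250 and 210 bases.

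Of the 93 members, 35 had a mean count over all libraries of 10 or more and were tested: 13 collagens, 7 Adamts, 3 Adamts-like, 7 Mmp and 4 Timp genes, and Col4a3bp. A member high in 1 group alone could pass this minimum through that group, so the tested members are not a fair sample of all 93. Over the 9 libraries other than Hdac2 ECKO, 6 tested members had a mean count under 10: Adamts15 with 2.22, Adamts4 with 7, Col13a1 with 7.33, Adamts5 with 8.11, Col4a5 with 8.44 and Col9a3 with 9.67. They were tested only because of their counts in Hdac2 ECKO, and Adamts4 also needed those in beta-catenin GOF. The members just below it were Col1a1, Col6a3 and Col27a1 with mean counts of 9, 8.83 and 7.92, and those just above it were Adamts4, Mmp14 and Col9a3 with 10.8, 11.5 and 11.7. The test was edgeR's quasi-likelihood test over all 12577 genes with enough counts, with Benjamini-Hochberg adjusted p under 0.05 as the threshold. The 3 comparisons against WT use the same WT libraries and are therefore not independent of each other.

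Against WT, Hdac2 ECKO had higher Adamts15, a protease of proteoglycans, and higher Col4a3bp. These 2 of 35 members passed, where 9.20% of all genes tested were called in that comparison. Adamts15 had 132 of its 152 counts in Hdac2 ECKO and reached the count minimum only through that group, so its call is no support for a response of the family. In libraries labelled Ezh2 ECKO no member passed, with 1.03% of all genes called. In beta-catenin GOF no member passed, and of all genes 0% were called, although 3 members and 763 genes (6.07%) had an unadjusted p under 0.05. DESeq2 also called no member in beta-catenin GOF. Unadjusted p-values under 0.05 were held by 10 members in Hdac2 ECKO (33.1% of all genes) and by 7 in libraries labelled Ezh2 ECKO (24.7% of all genes), so neither share of members stood above that of all genes.

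Over the 35 members, the log2FC in Hdac2 ECKO was above 0 for 31 and below 0 for 4, with a median of 0.86 against 0.10 over all genes tested. Since 6 of the 35 were tested only through their counts in Hdac2 ECKO, the count and the median are descriptions from which nothing is read. The values of Hdac2 ECKO and WT did not overlap for 11 members that were higher (19.5% of all genes) and for 1 that was lower (18.2% of all genes), 37.8% of all genes being apart in either direction. Members are long genes, with a median length of 7013 bases against 4429 for all genes tested. The 4257 genes of 4746 to 9378 bases, the middle range of the members, had a median log2FC of 0.36 in the same comparison. With the trend on length and GC content removed, the median was 0.60 for members and −0.02 for all genes. Scaling by library totals moved the median of all genes to 0.34 and that of members to 1.10.

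In libraries labelled Ezh2 ECKO, 21 members had a log2FC above 0 and 14 below, with a median of 0.15 against 0.05 for all genes. Values did not overlap for 7 members that were higher and 2 that were lower, against 11.0% and 10.9% of all genes, or 21.9% in either direction. In beta-catenin GOF the counts were 27 above and 8 below, with a median of 0.45 against 0.01 for all genes. There, 4 members were higher without overlap (6.83% of all genes) and 0 were lower (5.87% of all genes), 12.7% of all genes being apart in either direction.

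**Figure D2:**
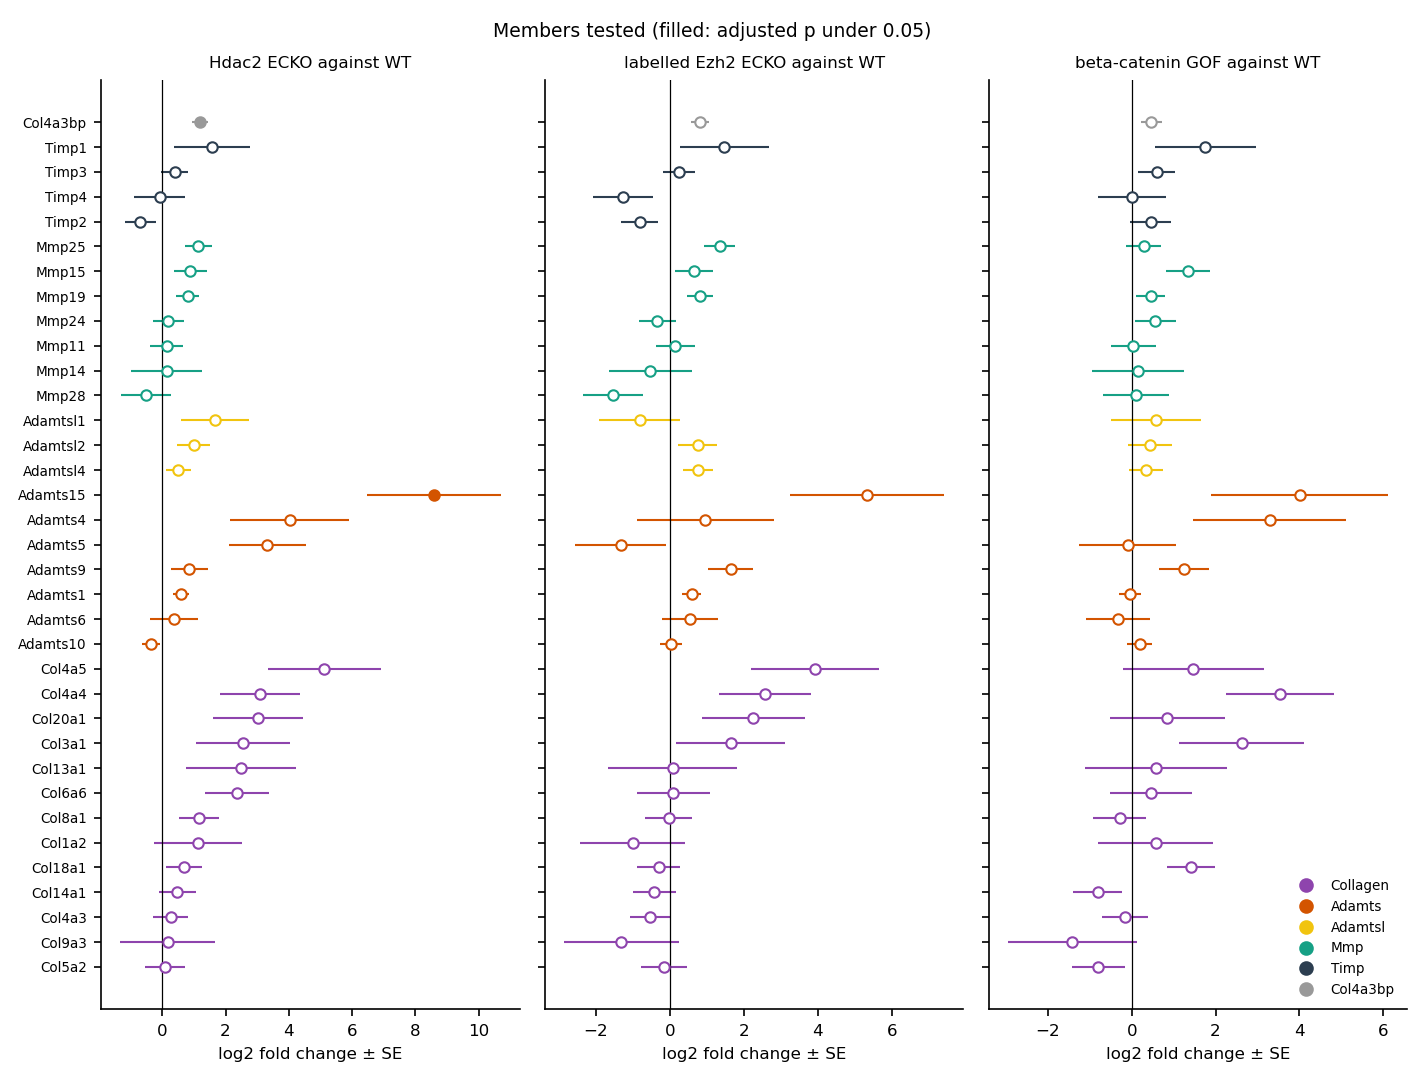
Log2FC against WT of the 35 members tested, with its standard error, in the 3 mutants; colours mark families and filled points an adjusted p under 0.05 in edgeR's quasi-likelihood test. The filled points are Adamts15 and Col4a3bp in Hdac2 ECKO, and the genes of lowest counts have the widest errors.

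Among the Adamts genes, the proteases of aggrecan and versican are Adamts1, Adamts4, Adamts5, Adamts8, Adamts9, Adamts15 and Adamts20. Adamts15 (chr9:30899155-30922452, minus strand, GRCm38) was at 0, 0 and 0 CPM in WT and at 2.72, 0.391 and 1.66 CPM in Hdac2 ECKO. It was at 0.130, 0 and 0.359 CPM in libraries labelled Ezh2 ECKO, against 0.136, 0 and 0.0581 CPM in beta-catenin GOF. All 3 Hdac2 ECKO libraries were thus above every WT library, and also above every library of the other groups. The 132 counts in Hdac2 ECKO against 0 in WT put the level at least 15.6-fold higher, with WT set at the floor of 3 counts per library. Most read pairs gave 2 counts, and with a floor of 6 counts per library, an alternative chosen after seeing the data, the level was at least 7.81-fold higher. The fitted log2FC was 8.58 (SE 2.11, edgeR, adjusted p 0.036), a value that depends on how the fit treats the zeros. Every other setting that kept all libraries and tested the gene also called it, in 8 of 8 settings. Leaving out WT replicate 1 or 2 or Hdac2 ECKO replicate 1 or 3 ended the call, with edgeR adjusted p of 0.133, 0.105, 0.16 and 0.14. The log2FC was then 8.59, 8.58, 7.94 and 8.52, and those fits called 0, 0, 3 and 0 of all genes. Leaving out WT replicate 3 or Hdac2 ECKO replicate 2 kept it, with 0.0408 and 0.0191, in fits that called 1872 and 2216 genes.

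Adamts5 and Adamts8 are neighbours of other members. Adamts5, the main aggrecanase of cartilage, lies 53.1 kb from Adamts1 on chromosome 16. It was at 0.416, 0.570 and 0 CPM in WT and at 4.92, 2.67 and 2.43 CPM in Hdac2 ECKO, so the groups did not overlap. It was below 0.5 CPM in every library of the other mutants, at 0 to 0.287 in libraries labelled Ezh2 ECKO, against 0.174 to 0.475 in beta-catenin GOF. The log2FC of 3.32 (SE 1.23) in Hdac2 ECKO did not pass (edgeR, adjusted p 0.0823). It passed with DESeq2, with sample quality weights and without the filter (adjusted p 0.0215, 0.0101 and 0.0436). Those fits called 20.3%, 42.7% and 11.2% of all genes. With the length and GC trend removed it did not pass (edgeR, adjusted p 0.171). Adamts5 reached the count minimum only through Hdac2 ECKO, so these calls are no support for a response of the family. Adamts8 lies 20.1 kb from Adamts15 on chromosome 9 and was too low to be tested. It had 0 counts in WT against 38 in Hdac2 ECKO (1.14, 0.261 and 0 CPM). It also had 28 counts in libraries labelled Ezh2 ECKO, all of them in replicate 2 at 1.10 CPM.

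Adamts1 (chr16:85793827-85803113, minus strand) was nearly constant in WT, at 179.6, 172.8 and 181.7 CPM. It was at 293.2, 170.4 and 336.6 CPM in Hdac2 ECKO, where replicate 2 lay just below the lowest WT value, and at 268.3, 239.9 and 294 CPM in libraries labelled Ezh2 ECKO, all above WT. In beta-catenin GOF it was at 176.2, 141.2 and 200.4 CPM, around the WT values. The log2FCs of 0.58 (SE 0.26) in Hdac2 ECKO and 0.59 (SE 0.26) in libraries labelled Ezh2 ECKO did not pass (edgeR, adjusted p 0.133 and 0.178). In beta-catenin GOF it was −0.04 (SE 0.26, edgeR, adjusted p 0.994), turning to 0.01 with scaling by library totals and to 0.08 without beta-catenin GOF replicate 2. Without Hdac2 ECKO replicate 2, Adamts1 passed in Hdac2 ECKO with a log2FC of 0.77 (edgeR, adjusted p 0.0406). That fit called 17.6% of all genes.

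Adamts9, a secreted protease that is also needed for cilium formation, was at 3.19, 6.39 and 5.02 CPM in WT. It reached 11.5, 8.66 and 25.6 CPM in libraries labelled Ezh2 ECKO, without overlap, with a log2FC of 1.65 (SE 0.60) that did not pass (edgeR, adjusted p 0.119). Without replicate 2 of those libraries it passed, with 1.93 (edgeR, adjusted p 0.046), in a fit that called 18.5% of all genes. In beta-catenin GOF, replicate 3 was at 24.3 CPM and the others at 3.44 and 6.88. Adamts4, which cuts brain proteoglycans, was at 0.139, 0 and 0 CPM in WT and at 0 to 0.180 CPM in libraries labelled Ezh2 ECKO. It was uneven in Hdac2 ECKO, at 1.74, 0 and 0.693 CPM (log2FC 4.03, SE 1.87, edgeR, adjusted p 0.147).

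The other Adamts genes were led by Adamts10, which acts on microfibrils, at 10.7, 17.8 and 14.3 CPM in WT, and at 8.70, 14.8 and 9.91 CPM in Hdac2 ECKO. Its log2FC of −0.36 (SE 0.30, edgeR, adjusted p 0.416) was the next smallest p among members lower in Hdac2 ECKO after Timp2, and the groups overlapped. In libraries labelled Ezh2 ECKO Adamts10 was at 13.7 to 15.0 CPM, with a log2FC of 0.03. Adamts6 overlapped between all groups, at 0.902 to 4.56 CPM in WT, and at 0.465 to 7.28 CPM in the mutants. The procollagen N-propeptidases, which trim the ends of fibrillar procollagens, were close to absent. Adamts2 had 24 counts in WT (0.486, 0 and 0.356 CPM) and 2 in libraries labelled Ezh2 ECKO. It had 0 in Hdac2 ECKO and in beta-catenin GOF. Adamts14 had 0 counts in WT against 14 in Hdac2 ECKO, and Adamts3 had 0 and 7.

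The Adamts-like genes encode matrix proteins that resemble Adamts but lack the protease domain. Adamtsl4 was at 2.43, 3.07 and 2.67 CPM in WT and above 3.3 CPM in every mutant library, at 3.59 to 4.02 in Hdac2 ECKO, 3.32 to 3.55 in beta-catenin GOF and 3.92 to 5.71 in libraries labelled Ezh2 ECKO. None of its log2FCs of 0.50, 0.33 and 0.76 (SE 0.40 each) passed (edgeR, adjusted p 0.393, 0.951 and 0.251). Adamtsl2, which binds latent TGF-beta binding protein, was at 3.19, 3.67 and 1.28 CPM in WT, and at 4.01, 7.11 and 5.06 CPM in Hdac2 ECKO (log2FC 0.99, SE 0.53, edgeR, adjusted p 0.201). Adamtsl1 was at 0.902, 1.90 and 0.783 CPM in WT, and Hdac2 ECKO replicate 1 alone reached 8.02 CPM.

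**Figure D3:**
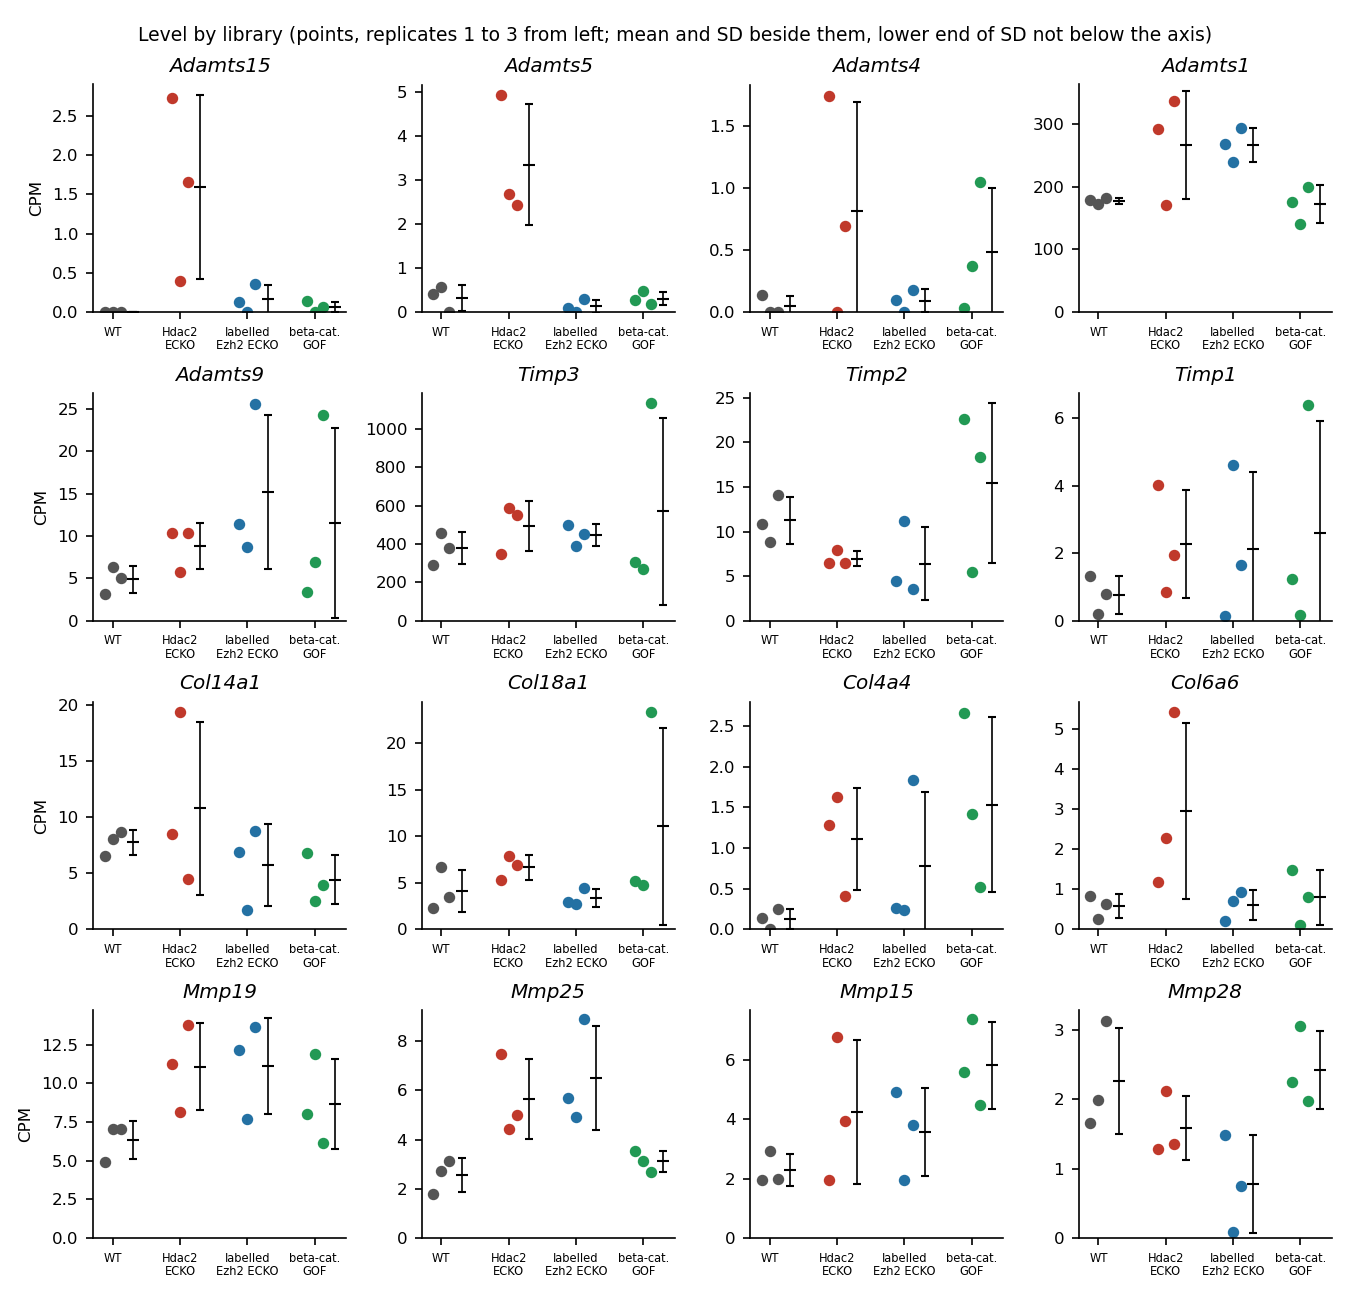
Level in CPM of 16 members in each library, with the mean and SD of each group of 3 beside the points, replicates 1 to 3 from left to right. Adamts15 and Adamts5 are higher in all 3 Hdac2 ECKO libraries than in every WT library, while Timp3, Col18a1 and Adamts9 are led in beta-catenin GOF by replicate 3.

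Of the Timp genes, Timp3 (chr10:86300372-86349506, plus strand) was at 292.3, 459.3 and 381.1 CPM in WT and at 345.7, 589.1 and 550.5 CPM in Hdac2 ECKO. It was at 500.3, 387.3 and 452.7 CPM in libraries labelled Ezh2 ECKO, against 307.2, 268.6 and 1135 CPM in beta-catenin GOF. Every mutant group overlapped WT, and 1 beta-catenin GOF library held the highest value of all 12. The log2FCs of 0.39, 0.24 and 0.60 did not pass (SE 0.43, 0.43 and 0.44, edgeR, adjusted p 0.553, 0.764 and 0.911). Without beta-catenin GOF replicate 3 the last turned to −0.39, and with the length and GC trend removed the first 2 turned to −0.10 and −0.02.

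Timp3 lies inside Syn3, a neuronal synapsin gene on the opposite strand. GENCODE places 1733 exon bases at chr10:86347774-86349506 in both genes. Over the libraries, the counts given to Syn3 were 65.2% to 90.8% of those given to Timp3, with a median of 84%. Reads of the 2 genes cannot be told apart there without strand. Timp1 lies inside Syn1 and Timp4 inside Syn2 in the same way, and the level of these hosts in WT was 0.485 and 3.15 CPM.

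Timp2, which also takes part in the activation of Mmp2, was at 10.9, 8.86 and 14.1 CPM in WT. It was lower in all 3 Hdac2 ECKO libraries, at 6.51, 7.89 and 6.45 CPM, with a log2FC of −0.70 (SE 0.49) that did not pass (edgeR, adjusted p 0.332). It was at 4.47, 11.2 and 3.59 CPM in libraries labelled Ezh2 ECKO, against 22.6, 5.43 and 18.4 CPM in beta-catenin GOF, both overlapping WT. The log2FCs there were −0.82 and 0.45 (SE 0.49 each, edgeR, adjusted p 0.313 and 0.939). The first passed without replicate 2 of libraries labelled Ezh2 ECKO (edgeR, adjusted p 0.0492), in a fit that called 18.5% of all genes. Timp1, which rises in injured brain, ranged from 0.190 to 1.32 CPM in WT and from 0.130 to 6.39 CPM in the mutants, with log2FCs of 1.57, 1.47 and 1.76 (SE 1.21, 1.21 and 1.22) that did not pass (edgeR, adjusted p 0.379, 0.467 and 0.909). The last turned to −0.15 without beta-catenin GOF replicate 3. Timp4 was at 1.28, 2.15 and 1.85 CPM in WT and below that in all 3 libraries labelled Ezh2 ECKO, at 1.00, 0.787 and 0.395 CPM (log2FC −1.27, SE 0.82, edgeR, adjusted p 0.35).

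Among the Mmp genes, no member passed in any comparison. Mmp25, anchored to the membrane by a lipid and known from leukocytes, was at 1.80, 2.72 and 3.13 CPM in WT, at 7.49, 4.44 and 4.99 CPM in Hdac2 ECKO and at 5.70, 4.92 and 8.90 CPM in libraries labelled Ezh2 ECKO. All libraries of both mutants were above WT, while beta-catenin GOF overlapped it at 2.67 to 3.55 CPM. The log2FCs were 1.14 and 1.35 (SE 0.42 each, edgeR, adjusted p 0.0822 and 0.0873). The second passed without replicate 2 of libraries labelled Ezh2 ECKO (edgeR, adjusted p 0.0322), in a fit that called 18.5% of all genes. Mmp19, an Mmp of the vessel wall, was at 4.93, 7.06 and 7.05 CPM in WT, at 11.3, 8.15 and 13.8 CPM in Hdac2 ECKO and 12.1, 7.67 and 13.6 CPM in libraries labelled Ezh2 ECKO. Neither group overlapped WT, and the log2FCs of 0.80 and 0.81 (SE 0.36 each) did not pass (edgeR, adjusted p 0.133 and 0.175).

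Mmp15 is a membrane-type enzyme of endothelium and epithelium. It was at 1.94, 2.91 and 1.99 CPM in WT and at 5.59, 7.39 and 4.47 CPM in beta-catenin GOF, without overlap, and its log2FC of 1.35 (SE 0.52) did not pass (edgeR, adjusted p 0.748). Mmp28 was the member of smallest p among those lower in libraries labelled Ezh2 ECKO, at 1.49, 0.0787 and 0.754 CPM against 1.67, 1.99 and 3.13 CPM in WT (log2FC −1.53, SE 0.81, edgeR, adjusted p 0.25). Mmp24, a membrane-type enzyme known from neurons, overlapped WT in every group, at 3.74 to 7.44 CPM in WT, and at 1.33 to 10.3 CPM in the mutants. Mmp11 also overlapped, at 1.78 to 3.26 CPM in WT, and at 1.81 to 3.32 CPM in the mutants. Mmp14, the activator of Mmp2, was at 0.178 to 0.763 CPM in WT, and at 0.0718 to 0.639 CPM in the mutants. The gelatinases Mmp2 and Mmp9, which cut type IV collagen, were not tested, with 4 and 12 counts summed over WT. Mmp2 reached 1.17 CPM in 1 library labelled Ezh2 ECKO and stayed below 0.2 CPM in the other 11.

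The Mmp genes clustered on chromosome 9 were near or at 0. The cluster spans 427.1 kb, from 7272514 to 7699585, and holds 9 members, among them the stromelysins Mmp3 and Mmp10, the collagenases Mmp8, Mmp13 and Mmp1b, and matrilysin, Mmp7. Together they had 57 counts over all 12 libraries, none above 6 in a library, and Mmp7 had 0 counts throughout. Their promoters are shown because they share a layout that no other member in the promoter table has, and 4 of them are given.
Mmp3: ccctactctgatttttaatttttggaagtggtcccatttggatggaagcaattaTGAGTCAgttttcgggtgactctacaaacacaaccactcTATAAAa
Mmp10: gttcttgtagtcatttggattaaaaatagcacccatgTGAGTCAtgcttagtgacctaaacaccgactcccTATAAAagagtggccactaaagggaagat
Mmp13: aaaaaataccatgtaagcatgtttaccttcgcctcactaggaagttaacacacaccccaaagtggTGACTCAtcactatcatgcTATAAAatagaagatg
Mmp7: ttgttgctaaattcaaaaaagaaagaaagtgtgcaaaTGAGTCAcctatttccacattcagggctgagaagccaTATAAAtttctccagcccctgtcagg
Each is 100 bases from the RefSeq table (GRCm38.p6), all on the plus strand, at chr9:7445722-7445821 for Mmp3, chr9:7502242-7502341 for Mmp10, chr9:7272414-7272513 for Mmp13 and chr9:7691990-7692089 for Mmp7. Capitals mark the AP-1 match first and the TATA box after it. Both motifs occurred in 6 of the 9 cluster promoters (66.7%), the other two being those of Mmp1b and Mmp20. They occurred together in 0 of the 59 other members with a promoter in the table and in 1.21% of all 32851 promoters, where AP-1 alone was in 6.75%. The median number of CpG dinucleotides was 1 in the cluster, 11 in the other members and 6 in all promoters. A match describes the letters only.

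Type IV collagen has further chains besides the pair left out by the rule, and these lie head to head in pairs. Col4a3 and Col4a4 are 71 bases apart on chromosome 1 and point away from each other, so the whole stretch between the genes of the table can be shown, chr1:82586850-82586920 on the minus strand, from the RefSeq table (GRCm38.p6).
Col4a4: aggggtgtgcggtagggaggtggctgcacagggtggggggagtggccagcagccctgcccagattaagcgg
None of the 4 motifs occurred in it. Col4a3 was at 4.65, 2.28 and 2.56 CPM in WT, and at 2.27, 5.54 and 3.60 CPM in Hdac2 ECKO, with overlap (log2FC 0.27, SE 0.55, edgeR, adjusted p 0.763). With the length and GC trend removed it turned to −0.30. Col4a4 was at 0.139, 0 and 0.249 CPM in WT, at 1.29, 1.63 and 0.416 CPM in Hdac2 ECKO and 2.66, 1.42 and 0.523 CPM in beta-catenin GOF. Both mutant groups were above WT in all 3 libraries. Its log2FCs of 3.08 (SE 1.26) and 3.54 (SE 1.28) did not pass (edgeR, adjusted p 0.108 and 0.726). Whether the partners differ in their response was not tested.

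Col4a5 and Col4a6 are the X-linked pair, 1.31 kb apart. Col4a5 was at 0 to 0.0712 CPM in WT and at 2.54, 0 and 2.56 CPM in Hdac2 ECKO, where replicate 2 had none. The log2FC of 5.12 (SE 1.79) did not pass (edgeR, adjusted p 0.0711). It passed without Hdac2 ECKO replicate 2 (5.65, edgeR, adjusted p 0.0262), in a fit that called 17.6% of all genes. Col4a5 reached the count minimum only through Hdac2 ECKO. In libraries labelled Ezh2 ECKO it was at 0.130, 1.97 and 0.144 CPM, above every WT library (log2FC 3.93, SE 1.73, edgeR, adjusted p 0.177). Col4a6 was below the count minimum, with 0 counts in WT against 68 in Hdac2 ECKO, of which 60 were in replicate 3 (0.151, 0.131 and 2.08 CPM). Col8a1, a short-chain collagen of vessel walls, was at 1.32, 2.09 and 5.77 CPM in WT, and at 7.57, 5.54 and 7.49 CPM in Hdac2 ECKO, with overlap at 1 library.

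The fibril-forming chains, the main collagens of fibroblasts, were low. Col5a2 was at 2.78, 3.42 and 5.41 CPM in WT and at 1.94, 1.74 and 2.96 CPM in beta-catenin GOF, with a log2FC of −0.80 (SE 0.63, edgeR, adjusted p 0.914). In Hdac2 ECKO it was 0.09 (SE 0.63, edgeR, adjusted p 0.933) and turned to −0.47 with the length and GC trend removed. Col1a2 was at 1.11, 0.886 and 0 CPM in WT, and at 0 to 3.33 CPM in the mutants. Its partner in type I collagen, Col1a1, had 88 counts in WT (2.01, 0.190 and 0.854 CPM) against 4 in Hdac2 ECKO, 12 in beta-catenin GOF and 4 in libraries labelled Ezh2 ECKO. The mean count of 9 kept Col1a1 from the test. Col3a1 was at 0.0633 to 0.142 CPM in WT, and at 0.326 to 1.01 CPM in Hdac2 ECKO.

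Col14a1, which lies on the surface of collagen fibrils, was at 6.52, 8.04 and 8.69 CPM in WT and at 6.82, 2.48 and 3.95 CPM in beta-catenin GOF (log2FC −0.81, SE 0.59, edgeR, adjusted p 0.911). In Hdac2 ECKO it was at 8.47, 19.4 and 4.47 CPM, and its log2FC of 0.48 (SE 0.58, edgeR, adjusted p 0.592) turned to −0.31 without replicate 2. Col18a1 was at 2.29, 6.68 and 3.52 CPM in WT, at 5.26, 7.86 and 6.90 CPM in Hdac2 ECKO and at 5.18, 4.75 and 23.3 CPM in beta-catenin GOF. The last group held 1 library far above its others (log2FC 1.41, SE 0.57, edgeR, adjusted p 0.776). Col6a6, a chain of microfibrillar type VI collagen, was at 0.833, 0.253 and 0.641 CPM in WT, and at 1.17, 2.28 and 5.41 CPM in Hdac2 ECKO, without overlap (log2FC 2.35, SE 1.01, edgeR, adjusted p 0.122). Col20a1, another fibril-associated collagen, was at 0.0633 to 0.285 CPM in WT and reached 2.04, 0.783 and 0.624 CPM in Hdac2 ECKO, without overlap (log2FC 3.02, SE 1.43, edgeR, adjusted p 0.153). Col13a1, a transmembrane collagen, and Col9a3, known from cartilage, overlapped WT in every mutant. The classical type VI chains Col6a1, Col6a2 and Col6a3 were below the count minimum, with 16, 5 and 22 counts summed over WT.

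Summed over all members of a family, with no count minimum, collagens were at 24.6 to 31.3 CPM in WT, and at 47.3 to 51.3 CPM in Hdac2 ECKO. Libraries labelled Ezh2 ECKO had 16.7 to 32.6 CPM and beta-catenin GOF 22.58 to 39.97 CPM, so the 3 Hdac2 ECKO libraries lay above all 9 others. The sums came from different chains in the 3 libraries, since Col14a1 gave 19.4 CPM in replicate 2, Col4a5 was at 0 there, and Col6a6 and Col4a6 were highest in replicate 3. All genes of 4746 to 9378 bases had a median log2FC of 0.36 in Hdac2 ECKO against WT. The part of gene length in the collagen sums was not tested. Mmp sums were at 20.8 to 25.8 CPM in WT, and at 31.7 to 34.2 CPM in Hdac2 ECKO, without overlap. They reached the same levels in beta-catenin GOF, at 24.9 to 37.9 CPM, and in libraries labelled Ezh2 ECKO, at 24.6 to 33.8 CPM, both overlapping WT. Adamts-like sums were at 4.88 to 8.71 CPM in WT, below all libraries of Hdac2 ECKO at 11.4 to 16 CPM and all libraries labelled Ezh2 ECKO at 8.77 to 11.1 CPM. In beta-catenin GOF they overlapped WT, at 7.08 to 10.5 CPM. Adamts sums, mostly Adamts1, were at 197 to 206.6 CPM in WT and 268.1 to 344.2 CPM in libraries labelled Ezh2 ECKO, all above WT. They overlapped WT in Hdac2 ECKO at 197.4 to 369.5 CPM and in beta-catenin GOF at 171.1 to 240.9 CPM. Timp sums, mostly Timp3, were at 305.8 to 470.5 CPM in WT and overlapped it in every mutant. They were at 359.6 to 598.5 CPM in Hdac2 ECKO, 275.5 to 1161 CPM in beta-catenin GOF and 403.8 to 505.9 CPM in libraries labelled Ezh2 ECKO.

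**Figure D4:**
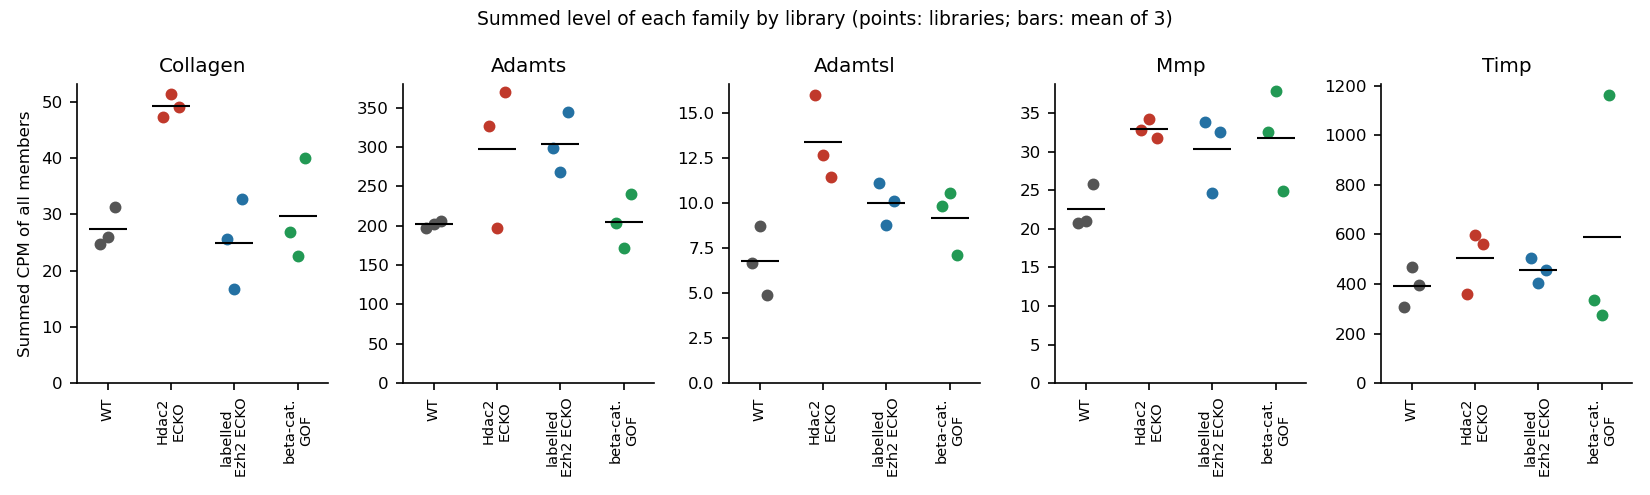
Summed CPM of all members of each family in every library, with bars at the mean of 3, in the 4 groups. The collagen sums of Hdac2 ECKO, 47.3 to 51.3 CPM, lie above all other libraries, and 1 beta-catenin GOF library reaches 1161 CPM in the Timp sum.

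Markers of mural cells, which lie on the same basement membrane and make collagen, also differed between the groups. Of 14 mural markers 12 were tested, and 6 rose in Hdac2 ECKO (3.82% of all genes were called higher). In beta-catenin GOF none passed. There, 7 were higher without overlap (6.83% of all genes) and 8 had an unadjusted p under 0.05 in edgeR (6.07% of all genes). In libraries labelled Ezh2 ECKO none passed, and 1 was higher without overlap (11.0% of all genes). The summed level of the mural markers was 70.8 to 131.7 CPM in WT. It was 147.3 to 361.1 CPM in Hdac2 ECKO, 130.6 to 437.8 CPM in beta-catenin GOF and 64.6 to 86.4 CPM in libraries labelled Ezh2 ECKO. Cnn1 and Myocd, of smooth muscle, were at 0 in WT. Fibroblast markers summed to 6.48 to 11.6 CPM in WT, and to 8.45 to 17.2 CPM in Hdac2 ECKO, and none of the 4 tested passed. They summed to 6.52 to 8.87 CPM in beta-catenin GOF and 0.944 to 11.1 CPM in libraries labelled Ezh2 ECKO. In all libraries of a group, Lum and Dpt were at 0 in WT, Aebp1 and Islr in Hdac2 ECKO, Mfap5 and Cemip in beta-catenin GOF, and Slc6a13 and Dpt in libraries labelled Ezh2 ECKO. Astrocyte markers summed to 24.3 to 35.8 CPM in WT and to 50.7 to 76.4 CPM in Hdac2 ECKO. The sum was 37.6 to 54.3 CPM in beta-catenin GOF and 44.1 to 79.8 CPM in libraries labelled Ezh2 ECKO. Every mutant library was above WT in this sum, but the single astrocyte markers did not all rise. Of the 8, 4 were tested and none passed. The log2FC was above 0 for 3 and below 0 for 1 in Hdac2 ECKO, the lowest being −2.245. Libraries labelled Ezh2 ECKO had the same split, with a lowest value of −2.13. For beta-catenin GOF the split was 2 above and 2 below, with a median of 0.06. Markers of choroid plexus and ependyma summed to 1.67 to 2.09 CPM in WT and to 2.42 to 111.8 CPM in Hdac2 ECKO. They summed to 0.422 to 33.6 CPM in beta-catenin GOF and 23.8 to 181.8 CPM in libraries labelled Ezh2 ECKO. Microglia and macrophage markers summed to 72.9 to 101.3 CPM in WT and to 40.5 to 63.0 CPM in Hdac2 ECKO, and overlapped WT in the other mutants. Of these 12 markers, 7 were at 0 in all beta-catenin GOF libraries and 2 in all Hdac2 ECKO libraries, but none in WT. In each mutant, 5 of the 6 tested had a log2FC below 0 and 1 above. The median was −3.49 in beta-catenin GOF, −0.56 in Hdac2 ECKO and −0.82 in libraries labelled Ezh2 ECKO. In beta-catenin GOF, 3 were lower without overlap (5.87% of all genes) and 3 had an unadjusted p under 0.05 in edgeR (6.07% of all genes). Oligodendrocyte and platelet sums overlapped WT in every mutant. No tested marker of fibroblasts, astrocytes, choroid plexus and ependyma, microglia and macrophages, oligodendrocytes or platelets passed against WT. The part of these cells in the collagen, Mmp and Adamts results was not tested. In such bulk samples, more cells of a type and more RNA per cell cannot be told apart.

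Col4a3bp (chr13:96542618-96640167, plus strand), whose product carries ceramide from the endoplasmic reticulum to the Golgi, is not a matrix gene. It was at 104.5, 137.8 and 106.4 CPM in WT, and at 319.3, 200.1 and 283.7 CPM in Hdac2 ECKO. It was at 236.2, 149.4 and 227.9 CPM in libraries labelled Ezh2 ECKO, against 168.9, 165.8 and 146.8 CPM in beta-catenin GOF. All 9 mutant libraries were above the highest WT library. It rose in Hdac2 ECKO by 1.20 on the log2 scale (SE 0.26, edgeR, adjusted p 0.0323), with 0.82 and 0.47 (SE 0.25 each) in the other mutants, which did not pass (edgeR, adjusted p 0.0871 and 0.883). With the length and GC trend removed the value in Hdac2 ECKO was 0.65 and did not pass (edgeR, adjusted p 0.0519). The call was also lost without WT replicate 1 or 2 or Hdac2 ECKO replicate 1 or 3 (edgeR, adjusted p 0.123, 0.0913, 0.155 and 0.13). The log2FC was then 1.13, 1.35, 1.04 and 1.14, in fits that called 0, 0, 3 and 0 of all genes.

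**Figure D5:**
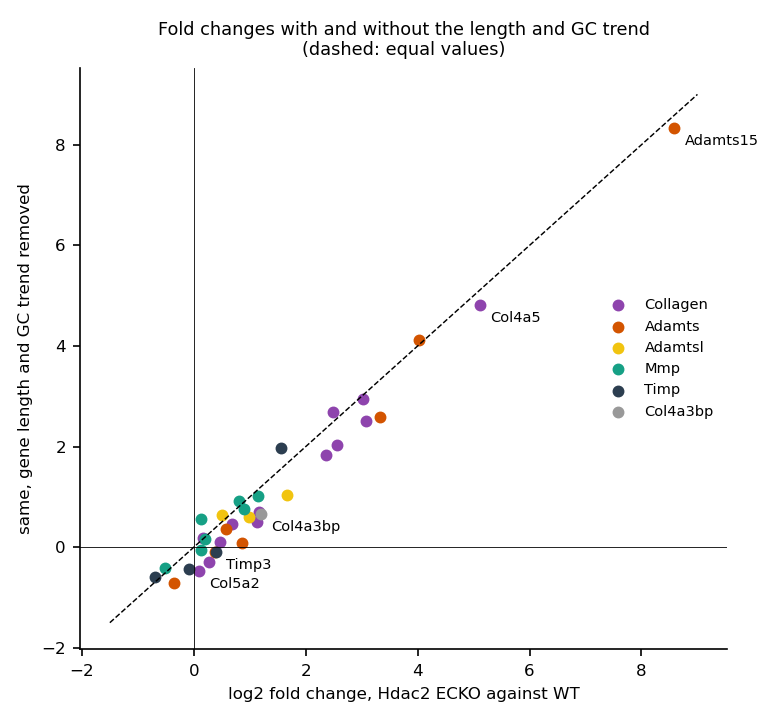
Log2FC of the 35 members in Hdac2 ECKO against WT, as fitted and with the trend on gene length and GC content removed; the dashed line marks equal values. Of the 35 points 26 lie below the line, Col4a3bp moves from 1.20 to 0.65, and Adamts15 from 8.58 to 8.33.

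Compared directly with each other, the mutants differed in no member past the threshold, where 0.0239% of all genes were called between Hdac2 ECKO and libraries labelled Ezh2 ECKO, 0.0716% between beta-catenin GOF and Hdac2 ECKO, and 0.0636% between beta-catenin GOF and libraries labelled Ezh2 ECKO. Members with an unadjusted p under 0.05 in edgeR numbered 4, 8 and 4, where 8.19%, 21.1% and 13.2% of all genes had one. DESeq2 called Adamts5 between Hdac2 ECKO and libraries labelled Ezh2 ECKO (0.783% of all genes) and no member in the other pairs. In that pair the log2FC of Adamts5 was 4.65 (SE 1.33, edgeR, adjusted p 0.391). Between beta-catenin GOF and Hdac2 ECKO, Adamts15 and Adamts5 had log2FCs of −4.58 (SE 1.57) and −3.42 (SE 1.23), with edgeR adjusted p of 0.169 each. Both genes reached the count minimum only through Hdac2 ECKO, so these values and the DESeq2 call are no support for a difference between the mutants.

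Of 55 genes that fold, crosslink, bind or control these proteins, 38 were tested. In Hdac2 ECKO 3 rose (3.82% of all genes were called higher) and 3 fell (5.38% were called lower), in libraries labelled Ezh2 ECKO 1 rose (0.342% were called higher), and in beta-catenin GOF none passed. Plod2, the lysyl hydroxylase that prepares collagen for crosslinks, was at 11.4, 14.8 and 12.5 CPM in WT, at 28.2, 23.2 and 29.4 CPM in Hdac2 ECKO and 33.6, 32.1 and 25.2 CPM in libraries labelled Ezh2 ECKO. It rose by 1.06 (SE 0.25) and 1.23 (SE 0.25) on the log2 scale (edgeR, adjusted p 0.034 and 0.0449), with no overlap. Reck, a membrane inhibitor of Mmp enzymes that brain vessels need, was at 47.3, 48.8 and 77.5 CPM in WT, and at 147.1, 93.6 and 131.6 CPM in Hdac2 ECKO, and rose by 1.10 (SE 0.31, edgeR, adjusted p 0.0429).

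Itga1, a collagen receptor subunit, was at 156.2, 241.7 and 247.2 CPM in WT, and at 452.1, 310.8 and 412.4 CPM in Hdac2 ECKO. It rose by 0.87 (SE 0.25, edgeR, adjusted p 0.0448), and with the length and GC trend removed the value was −0.01. Bsg, the surface protein known as an inducer of Mmp genes and abundant in brain endothelium, fell by 1.75 on the log2 scale (SE 0.48, edgeR, adjusted p 0.0405) from 40110, 32130 and 30240 CPM in WT to 5560, 17600 and 7313 CPM. Ctsb, a lysosomal protease, fell by 1.29 (SE 0.30, edgeR, adjusted p 0.0338), from 242.1, 151.9 and 114.3 CPM to 60.3, 86.3 and 61.2 CPM. P4hb, a subunit of the prolyl hydroxylase that stabilises collagen, fell by 1.11 (SE 0.33, edgeR, adjusted p 0.0497), with 187.7, 154.2 and 69.8 CPM in WT, but 52.3, 78.1 and 59.8 CPM in Hdac2 ECKO. Each of these 7 calls was lost without WT replicate 1, WT replicate 2, or replicate 1 or 3 of the mutant, with edgeR adjusted p from 0.0984 to 0.193. Those fits called 0 to 7 of all genes. The log2FCs in them ranged from 0.97 to 1.17 for Plod2, 0.94 to 1.04 for Reck, 0.68 to 0.96 for Itga1, −1.79 to −1.46 for Bsg, −1.36 to −0.94 for Ctsb and −1.09 to −0.82 for P4hb in Hdac2 ECKO, and from 1.13 to 1.34 for Plod2 in libraries labelled Ezh2 ECKO.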

How the data were processed

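Per the submitters' processing notes, reads were checked with FastQC, trimmed with cutadapt, aligned with STAR to mm10 and counted with featureCounts, and DESeq2 was used. Libraries were made with a SMART-Seq v4 kit and sequenced from both ends, per the labels' protocols. The deposited table is titled as normalized, but its values are whole counts per gene as the authors left them, with totals that differ between libraries. Even values made up 79.5% to 84.0% of those from 10 to 50, so most read pairs gave 2 counts, and the counts overstate the number of fragments. Whether counting used strand is not given in the sources used here.

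Counts were scaled by TMM and fitted with edgeR 4.0.16 (R 4.3.3) over all 12 libraries by group, keeping genes whose mean count was 10 or more. CPM values use the same scaling, and levels per kilobase use the gene length in the table. Positions are GRCm38, counted from 1, and 99.1% of the table's genes matched a GENCODE position. Alternatives were DESeq2 1.42.0, limma 3.58.1 (voom with sample quality weights), other filters and scalings, removal of the trend on length and GC content, a replicate block, only the groups compared, and each library left out. The fits were tested on simulated data.

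Members and lists were chosen with earlier results of these data known. Named members were those that passed, the 3 highest per kilobase in WT of each family, all Timp genes, and the 2 of smallest p per direction and comparison against WT; pathway genes were named where they passed, at most 6 per comparison. Other members, such as Adamts4, Adamts5, Adamts9, Col4a3, Col4a5, Col6a6 and the untested ones, were chosen after their values were seen. The floor for a group at 0 is 3 counts in each library, 0.0791 to 0.118 CPM on the TMM-scaled totals; without molecular identifiers it covers counting error only.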

Additional observations from a re-analysis of the deposited data

How the results depend on the processing

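The number of members called depended on the fit. The share of all genes called in the same fit, in brackets, moved as well. In Hdac2 ECKO against WT 2 members were called (9.20% of all genes), and 5 with DESeq2 (20.3%), 8 with sample quality weights (42.7%), 5 with no filter (11.2%), 1 with a mean count of at least 50 (13.0%), 4 with scaling by library totals (14.5%), 1 with the length and GC trend removed (7.11%), and 0 to 4 with 1 library left out (0% to 17.6%). It was 0 without WT replicate 1, WT replicate 2, Hdac2 ECKO replicate 1 or Hdac2 ECKO replicate 3, and 4 without Hdac2 ECKO replicate 2. For libraries labelled Ezh2 ECKO the number was 0 (1.03%), and 2 with DESeq2 (10.1%), 4 with sample quality weights (29.8%), 1 with no filter (6.72%) and 0 to 4 with 1 library left out (0.0159% to 18.5%), the 4 coming without their replicate 2. Between Hdac2 ECKO and libraries labelled Ezh2 ECKO, DESeq2 and the fit with no filter each called 1 (0.783% and 0.978%). Sample quality weights called 7 between beta-catenin GOF and Hdac2 ECKO (26.5%). Between beta-catenin GOF and libraries labelled Ezh2 ECKO, sample quality weights and no filter each called 1 (11.7% and 1.76%), and leaving out 1 library gave 0 to 1 (0.00795% to 5.82%). No member was called in beta-catenin GOF against WT under any setting run. The cause of these differences was not tested.

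Replicate numbers did not pair the libraries: of 18 same-number pairs, 3 had a correlation of deviations over 0.1, from −0.142 to 0.272. With the replicate block the members called stayed at 2 in Hdac2 ECKO against WT and at 0 in the other comparisons, while all genes called went from 1157 to 1832 and from 129 to 536 in Hdac2 ECKO and libraries labelled Ezh2 ECKO.

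Some values changed sign, all of them short of the threshold except that of Itga1, and the cause was not tested. With scaling by library totals, the log2FC turned to 0.0057 for Adamts1 in beta-catenin GOF, 0.13 for Timp4 in Hdac2 ECKO. With sample quality weights, the log2FC turned to −0.10 for Adamts10 in libraries labelled Ezh2 ECKO, −0.077 for Adamtsl1 in beta-catenin GOF, −0.34 for Col14a1 in Hdac2 ECKO, 0.11 for Col4a3 in beta-catenin GOF, −0.049 for Col6a6 in beta-catenin GOF, −0.34 for Timp4 in beta-catenin GOF. With the replicate block, the log2FC turned to 0.0006 for Adamts5 in beta-catenin GOF, −0.32 for Timp4 in beta-catenin GOF. With the length and GC trend removed, the log2FC turned to −0.093 for Adamts6 in Hdac2 ECKO, −0.30 for Col4a3 in Hdac2 ECKO, −0.47 for Col5a2 in Hdac2 ECKO, −0.093 for Col6a6 in libraries labelled Ezh2 ECKO, −0.10 for Timp3 in Hdac2 ECKO, −0.018 for Timp3 in libraries labelled Ezh2 ECKO, −0.039 for Timp4 in beta-catenin GOF, −0.011 for Itga1 in Hdac2 ECKO. With DESeq2, the log2FC turned to −0.0086 for Timp4 in beta-catenin GOF. With median-ratio size factors, the log2FC turned to −0.0077 for Timp4 in beta-catenin GOF. With only the 2 groups compared, the log2FC turned to −0.0039 for Timp4 in beta-catenin GOF. With 1 library left out, the log2FC ranged over 0 in 39 of 105 comparisons of a member with WT, of which 26 are given here: −0.17 to 0.081 for Adamts1 in beta-catenin GOF, −0.14 to 0.22 for Adamts10 in libraries labelled Ezh2 ECKO, −0.67 to 0.55 for Adamts5 in beta-catenin GOF, −0.36 to 0.76 for Adamts6 in Hdac2 ECKO, −0.99 to 0.17 for Adamts6 in beta-catenin GOF, −0.32 to 1.09 for Adamtsl1 in beta-catenin GOF, −0.051 to 0.71 for Adamtsl2 in beta-catenin GOF, −0.31 to 0.84 for Col14a1 in Hdac2 ECKO, −0.85 to 0.0088 for Col14a1 in libraries labelled Ezh2 ECKO. Further ranges were −0.60 to 0.22 for Col18a1 in libraries labelled Ezh2 ECKO, −0.16 to 0.65 for Col4a3 in Hdac2 ECKO, −0.39 to 0.22 for Col4a3 in beta-catenin GOF, −0.10 to 0.41 for Col5a2 in Hdac2 ECKO, −1.45 to 0.21 for Col5a2 in libraries labelled Ezh2 ECKO, −0.37 to 0.49 for Col6a6 in libraries labelled Ezh2 ECKO, −0.33 to 0.98 for Col6a6 in beta-catenin GOF, −0.062 to 0.46 for Mmp11 in Hdac2 ECKO, −0.023 to 0.47 for Mmp11 in libraries labelled Ezh2 ECKO. Further ranges were −0.27 to 0.36 for Mmp11 in beta-catenin GOF, −0.051 to 0.45 for Mmp24 in Hdac2 ECKO, −0.73 to 0.083 for Mmp24 in libraries labelled Ezh2 ECKO, −0.10 to 0.41 for Mmp28 in beta-catenin GOF, −0.15 to 2.41 for Timp1 in beta-catenin GOF, −0.39 to 0.93 for Timp3 in beta-catenin GOF, −1.14 to 0.24 for Timp4 in Hdac2 ECKO, −0.67 to 0.32 for Timp4 in beta-catenin GOF. Of the other values of a single gene under an alternative, 1208 kept direction and call, 46 lost the call and 25 gained one. Low counts limit the precision for Adamts4, Mmp14 and Col9a3, whose mean counts lie just above 10.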
